A study of Mus musculus with 3 samples.

Results

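The clustered histone genes encode the linker histone H1 and the core histones H2A, H2B, H3 and H4, and they sit in a few dense chromosomal clusters. They were taken here as every counted feature whose symbol begins with Hist1h, Hist2h, Hist3h or Hist4h, a rule that used no measured value. It found 69 of the 27998 features in each library. By symbol, 6 belong to H1, 19 to H2A, 19 to H2B, 12 to H3 and 13 to H4. The study profiled unsorted single cells from the bone marrow, the blood and the tendon injury site of 10-week-old male C57BL/6J mice, 3 days after a burn to the back was combined with full transection of the Achilles tendon (burn/tenotomy), an injury after which ectopic bone forms. All 3 libraries came from injured animals, 1 library per tissue, and no uninjured library was analysed here. Marrow was flushed from the femurs and freed of red cells by lysis, blood was enriched for mononucleated cells on a Ficoll gradient before the same lysis, and the tendon site was digested with enzymes at 37 °C. How many mice were pooled into a library is not stated. Tissue, preparation and library therefore cannot be told apart in any comparison between sites, and no test between groups was possible. Every interval given below is a 95% interval that covers counting error only.

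Most histone protein is made while DNA is being copied, when new chromatin needs packing, and the clustered genes are switched on together at that time by the cofactor NPAT. Their mRNAs classically lack a poly-A tail and end just after a short stem-loop that binds SLBP, the stem-loop binding protein, and they are degraded when replication stops. Some members also make transcripts that continue past the stem-loop to an ordinary polyadenylation signal. The 3′ chemistry used here primes on runs of A, so the UMIs (unique molecular identifiers, 1 per captured transcript) counted for these genes came from molecules that carried such a run.

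In the annotated transcript with the longest 3′ UTR, a stem-loop was found in 43 of the 65 members with a coding transcript in GENCODE M21 (GRCm38). Hist1h2bp has a stem-loop only in another annotated transcript. In 17 members the annotated 3′ UTR is under 50 bases, and in 13 of these it is absent, so the annotation may stop before a stem-loop. Among the stem-loops found, 3 sequences made up most. They are shown because the ends of the transcripts bear on what this chemistry can count. Capitals mark the paired stem and lower case the loop. The form named shared below was found in 23 members of the H1, H2A, H2B and H3 families, the H4 form in 7 members that all encode H4, and the last form in 6 members.

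shared stem-loop: GGCUCUuuucAGAGCC
H4 stem-loop: GGCCCUuuucAGGGCC
other stem-loop: GGCUCUuuuaAGAGCC

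A polyadenylation signal (AATAAA or ATTAAA) was found in the longest annotated 3′ UTR of 21 members. The windows around it are given, with the signal in capitals, for 3 members. Among members with at least 50 UMIs, these differed least between cycling and non-cycling cells of the whole marrow neutrophil lineage, as described below. The cycling and non-cycling cells also differed in maturity. Hist1h1e, the most counted member in the non-cycling cells of that lineage, has no such signal in its longest annotated 3′ UTR. A link between the signal and the levels was not tested. Hist1h2bc encodes a core histone H2B and has no stem-loop in its annotated 3′ UTR. Its AATAAA letters lie 441 bases before the annotated transcript end, against 28 for Hist3h2a and 20 for Hist1h1c, so whether they act as the signal is not known from these data. Hist3h2a encodes a core histone H2A from the small Hist3 cluster and has 1643 annotated bases after its stem-loop, and Hist1h1c, a linker histone gene, has 840.

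Hist1h2bc: tgatgtatatatAATAAAtgtcatgtaaag
Hist3h2a: aggtatatgcccAATAAAataagagtacgt
Hist1h1c: gtgtatgcttctAATAAAaagcgtttagtt

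RefSeq promoter windows of 300 bases on GRCm38.p6, from 250 before to 50 after the start, were matched to 63 members. On either strand, the letters CCAAT occurred in 85.7% of the members' windows and in 37.4% of the 32817 windows of all genes, and TATAAA in 55.6% against 13.6%. The CCAAT letters were in every matched H1, H2A, H2B and H3 window but in 3 of 12 H4 windows. AAACACA, the letters of the H1 box, occurred in 5 of 6 H1 windows and in 7.19% of all windows, and the octamer ATTTGCAT in 22.2% of the members' windows, all of them H2A or H2B, against 1.74% overall. Each motif was searched on its own, so matches of different motifs may share bases, and a match describes the sequence only. The 140 bases before the start are shown for 3 linker histone genes whose levels differed widely in the results and for the most counted H4 gene, with motif letters in capitals on either strand.

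Hist1h1b (chr13:21780626-21780765, minus strand): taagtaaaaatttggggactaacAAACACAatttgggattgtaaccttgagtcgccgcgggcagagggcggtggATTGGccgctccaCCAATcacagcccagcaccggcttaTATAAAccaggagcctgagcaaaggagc
Hist1h1e (chr13:23622559-23622698, minus strand): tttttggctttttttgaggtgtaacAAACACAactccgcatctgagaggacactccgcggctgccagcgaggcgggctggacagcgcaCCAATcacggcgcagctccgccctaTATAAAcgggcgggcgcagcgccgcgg
Hist1h1c (chr13:23738667-23738806, plus strand): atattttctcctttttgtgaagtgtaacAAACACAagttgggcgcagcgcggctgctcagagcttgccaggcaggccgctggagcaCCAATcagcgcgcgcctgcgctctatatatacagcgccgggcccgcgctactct
Hist1h4d (chr13:23581428-23581567, plus strand): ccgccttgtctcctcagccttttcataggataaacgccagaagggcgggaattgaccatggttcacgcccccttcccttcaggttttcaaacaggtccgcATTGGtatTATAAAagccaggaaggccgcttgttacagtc

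In the bases shown, the 3 H1 genes share the AAACACA and CCAAT letters, and TATAAA is marked in Hist1h1b and Hist1h1e but not in Hist1h1c. Whether these letters bear on the levels described below was not tested.

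The Hist1 cluster on chromosome 13 held 55 members and 93.2% of all clustered histone UMIs. Its members lie in a proximal block of 22 genes (chr13:21715763-22043676) with 42.6% of the UMIs and a distal block of 30 genes (chr13:23531050-23934851) with 49.6%, and Hist1h2al lies alone at chr13:51202727-51203065. The Hist2 cluster (chr3:96219865-96279001) has 11 members, the Hist3 cluster on chromosome 11 has 2, the Hist4 locus on chromosome 6 has 1, and 2 members, Hist1h2bm and Hist1h2bh, have no entry in GENCODE M21. Hist1h2al is annotated there as a processed pseudogene and the Hist2h2bb feature ENSMUSG00000050936 as a long non-coding RNA. By family, H1 took 36.9% of the UMIs, H2A 33.4%, H4 13.1%, H2B 8.57% and H3 8.0%. These shares are of UMIs counted, which depend on how well each transcript end is captured, and are not amounts of protein.

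A few members carried most of the count. Hist1h1b (ENSMUSG00000058773), an H1 gene, had 78605 UMIs, or 20.5% of the total. Hist1h2ap (ENSMUSG00000094777), an H2A gene, had 62479, and the linker histone gene Hist1h1e (ENSMUSG00000051627) had 38197. Together with the H4 gene Hist1h4d (29940) and the H2A gene Hist1h2ae (28694), these 5 members made up 62.2%. In H2B the most counted members were Hist1h2bc (9667), Hist1h2bj (5706), the Hist2h2bb feature ENSMUSG00000105827 (3652) and Hist1h2be (3450), and in H3 they were Hist1h3c (13680), Hist1h3e (7032), Hist1h3i (2591) and Hist1h3f (2503). The further leading members were Hist1h1c (14065) and Hist1h1d (6181) in H1, Hist2h2ac (14053) and Hist1h2ab (9296) in H2A, and Hist1h4h (8718), Hist1h4i (4913) and Hist1h4c (2256) in H4. At the other end, Hist1h2br and the testis H2B gene Hist1h2ba had no UMI in any library. A UMI count cannot always be given to 1 member with certainty. Over the last 300 bases of their annotated transcripts, 29 members had at most 50% of 90-base windows that occur in no other gene, and 8 had none, Hist1h2ap, Hist1h1e, Hist1h3e and Hist1h3f among them. The 3′ end of Hist1h1e (chr13:23620629-23622558) overlaps the annotated span of Hist1h2be (chr13:23583670-23621124) on the same strand, and its windows are shared with that gene.

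The libraries held 1855 marrow, 2241 blood and 5629 tendon cells with median depths of 22836, 8316 and 11082 UMIs per cell. After the filters, 1813, 2146 and 4780 cells were kept, and 1626, 2031 and 4349 of them were given a class by summed scores of fixed marker genes that include no histone gene. Of the cell barcodes, 3 of marrow, 8 of blood and 7 of tendon also occurred in another library. Class names are given without the suffix -like, which applies to all of them. In marrow, blood and tendon, 127, 159 and 338 cells had a best score near the minimum needed for a class. How many cells lay near the limit between classes was not counted. The markers separated the marrow neutrophil gates unequally: the 5 azurophil granule genes (Elane, Mpo and others) summed to 25817 CPM (UMIs per 1000000 UMIs of a cell group, as in all levels below) in the azurophil gate and 45.9 in the mature gate, and the 7 specific granule genes to 110208 in the specific granule gate and 26641 in the mature gate. The 8 mature neutrophil genes were at 416974 in the mature gate and 366434 in the specific granule gate, so these markers alone hardly set the gates apart. For a scale of stray RNA, Elane was at 7711 CPM in the azurophil gate, at 9.20 in marrow B cells and at 0 in blood lymphocytes, and S100a8 was at 180150 in the specific granule gate and at 365 in marrow B cells. Cycling was read from summed S phase and G2/M genes, again without any histone gene, in cells thinned to 2000 UMIs: high meant at least 5 UMIs of a list and low at most 1 of each list. By these gates 38.4% of marrow, 1.47% of blood and 12.3% of tendon cells were high for a list. Classes with "low" gates are called cycle-low below.

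Clustered histone genes were at 6277 CPM in the marrow library, 936 in blood and 557 in tendon, and 67, 63 and 64 of the 69 members had at least 1 UMI. In marrow the level over all cells fell along the maturity gates of the neutrophil lineage, whereas among cycle-low cells it was 339 CPM in the specific granule gate and 442 in the mature gate. Over all cells it was 7729 CPM (7679 to 7780) in the 230 cells of the azurophil gate, which holds the least mature granulocyte precursors, and 6677 (6641 to 6712) in the 686 cells of the specific granule gate. It was 866 (840 to 892) in the 353 cells of the mature gate. The azurophil gate thus stood 3.16 above the mature gate on the log2 scale (3.11 to 3.20). Of the 69 members, 55 had the 20 UMIs over both gates that were asked of a gene, and 52 of these were at least 2-fold higher in the azurophil gate, where 57.4% of all 10331 genes measured were also higher. The median member was higher by 3.64 and the median gene by 1.48. The gates also differed in depth, with a median of 47864 against 13510 UMIs per cell. Median mitochondrial UMIs were 3.13% against 0.618%. Of the 230 azurophil gate cells, 54 were high for S phase genes only, 116 for both lists and 47 for G2/M genes only. In the mature gate 3 of 353 cells were high for a list, so maturity and cycling cannot be told apart in this comparison. The part of depth and of mitochondrial UMIs in the difference was not tested.

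**Figure D1:**
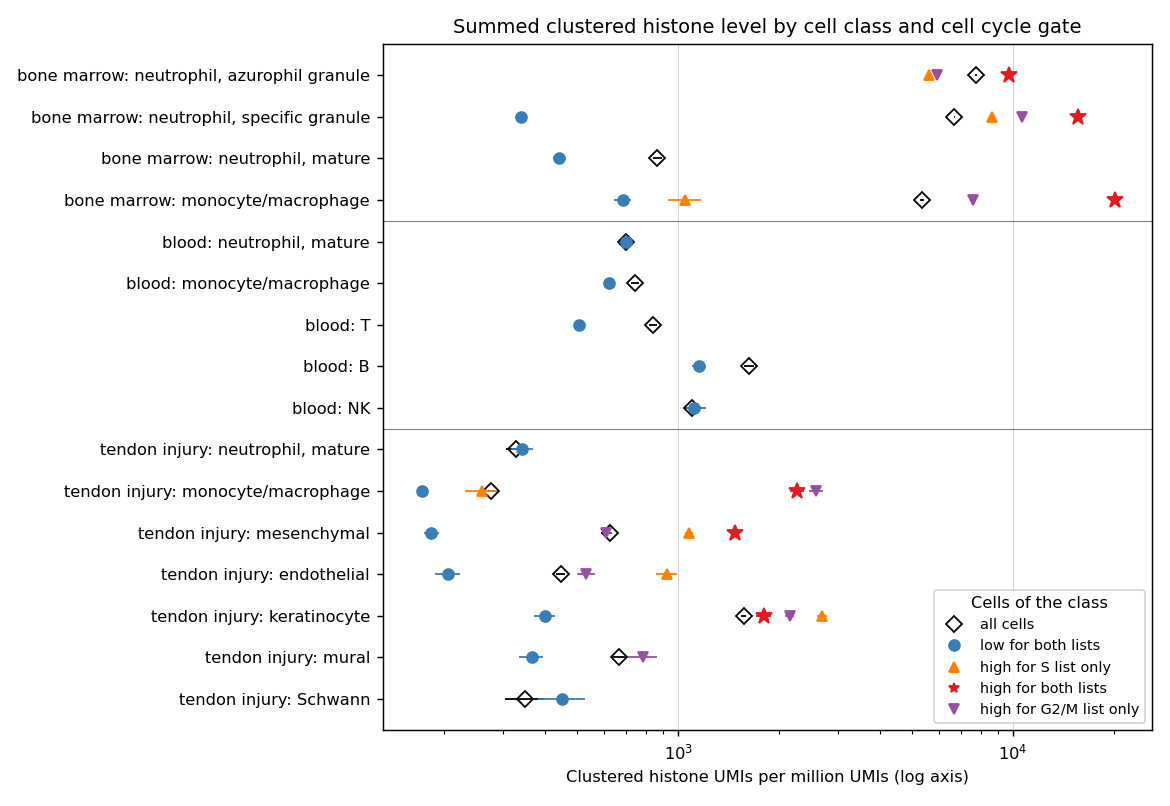
Summed clustered histone CPM (log axis) in each cell class, for all its cells and for the cells of each cycle gate with at least 10 cells. Bars are 95% counting intervals. In every class with cells of both kinds, the cells high for both lists lie to the right of the cycle-low cells, and the cycle-low tendon monocytes/macrophages lie lowest at 172.

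The members did not move alike between the gates. Hist1h1b went from 2095 CPM in the azurophil gate to 96.5 in the mature gate, and Hist1h2ap from 1251 to 83.8. Hist1h1e fell less, from 572 to 160. Hist1h1c was at 111 and 89.7, a log2 difference of 0.30, Hist3h2a was at 5.42 and 5.33, and Hist1h2bc ran the other way, at 30.1 in the azurophil gate and 76.8 in the mature gate (log2 difference of -1.35, interval -1.57 to -1.14). A few cells weighed heavily on the mature gate. Its 3 cells that were high for a cycle list held 2094 of its 4225 clustered histone UMIs, or 49.6%, and against the 306 cycle-low cells of the mature gate alone, at 442 CPM, the azurophil gate stood 4.13 higher on the log2 scale.

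The second comparison set cycling against non-cycling cells inside the marrow neutrophil lineage. The 275 cells high for S phase genes held 10172 CPM of clustered histone genes (10116 to 10228) and the 637 cycle-low cells 378 (367 to 390), a log2 difference of 4.75 (4.71 to 4.79). Over both groups, 57 members had at least 20 UMIs. Of these, 55 were at least 2-fold higher in the S phase high cells, against 52.7% of all genes. None was at least 2-fold lower, against 12.5% of all genes. The median member rose by 6.0 and the median gene by 1.14 on the log2 scale. A gene could reach the 20 UMIs through the S phase high cells alone, so the count and the medians favour members high there. The remaining 12 members had too few UMIs to be compared.

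Every family took part in this rise. The counts of members higher were 5 of 5 compared for H1, 14 of 15 for H2A, 13 of 14 for H2B, 10 of 10 for H3 and 13 of 13 for H4, with medians of 5.44, 6.15, 6.28, 7.38 and 4.09 on the log2 scale. H3 had the highest median and H4 the lowest. Of the members seen in both groups and with 50 UMIs or more, the H2A gene Hist1h2af differed most, by 9.66, from 0.0837 to 67.5 CPM, although its cycle-low value rests on 1 UMI. Hist1h1b rose from 4.77 to 2664 CPM, a log2 difference of 9.12 (8.75 to 9.53) that rests on 57 and 33608 UMIs. The H2A gene Hist1h2ab rose by 8.87, the H3 gene Hist1h3i by 8.77 and the H2B gene Hist1h2bh by 8.42. Hist1h2bm and Hist1h2an had no UMI at all in the cycle-low cells against 77.8 and 52.9 CPM in S phase high cells, which gives differences of at least 8.27 and 7.72 when 3 UMIs are taken as the limit of a zero count.

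Other abundant members rose from a level that was already measurable. Hist1h1e was at 121 CPM in the cycle-low cells and at 836 in the S phase high cells (log2 difference 2.79), Hist1h2ap at 28.6 and 1741, and Hist1h4d at 51.3 and 640. The 5 smallest differences among members with at least 50 UMIs belonged to Hist1h2bc (-0.17, interval -0.37 to 0.02), Hist3h2a (0.51), Hist1h1c (1.55) and the H4 genes Hist1h4i (2.71) and Hist1h4m (2.73). Hist1h2bc was at 37.9 CPM in cycle-low and 33.6 in S phase high cells, and its interval includes no difference. The cycle-low level was 4.77 for Hist1h1b and 121 for Hist1h1e, although Hist1h1b was the higher of the pair in S phase high cells. The part of stray RNA in the low values was not tested. S phase high cells were also deeper, with a median of 42217 UMIs against 18053, and their part was not tested beyond the thinned values below. Within the specific granule gate alone, where the granule markers are shared, the S phase high cells stood 5.36 above the cycle-low cells (13965 against 339 CPM), and 51 of 52 members were at least 2-fold higher, against 30.7% of all genes. Hist1h2bc was among them there, at 36.3 against 16.2 (1.16, interval 0.81 to 1.52), unlike in the lineage as a whole. The cycle-low lineage cells included 306 of the mature gate, where Hist1h2bc was at 77.0 CPM, and 330 of the specific granule gate. The S phase high cells included 105 of the specific granule gate, and 54 and 116 of the azurophil gate (high for S phase genes only and for both lists). The lineage contrast thus also mixes maturity, and the part of this in the Hist1h2bc value was not tested.

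**Figure D2:**
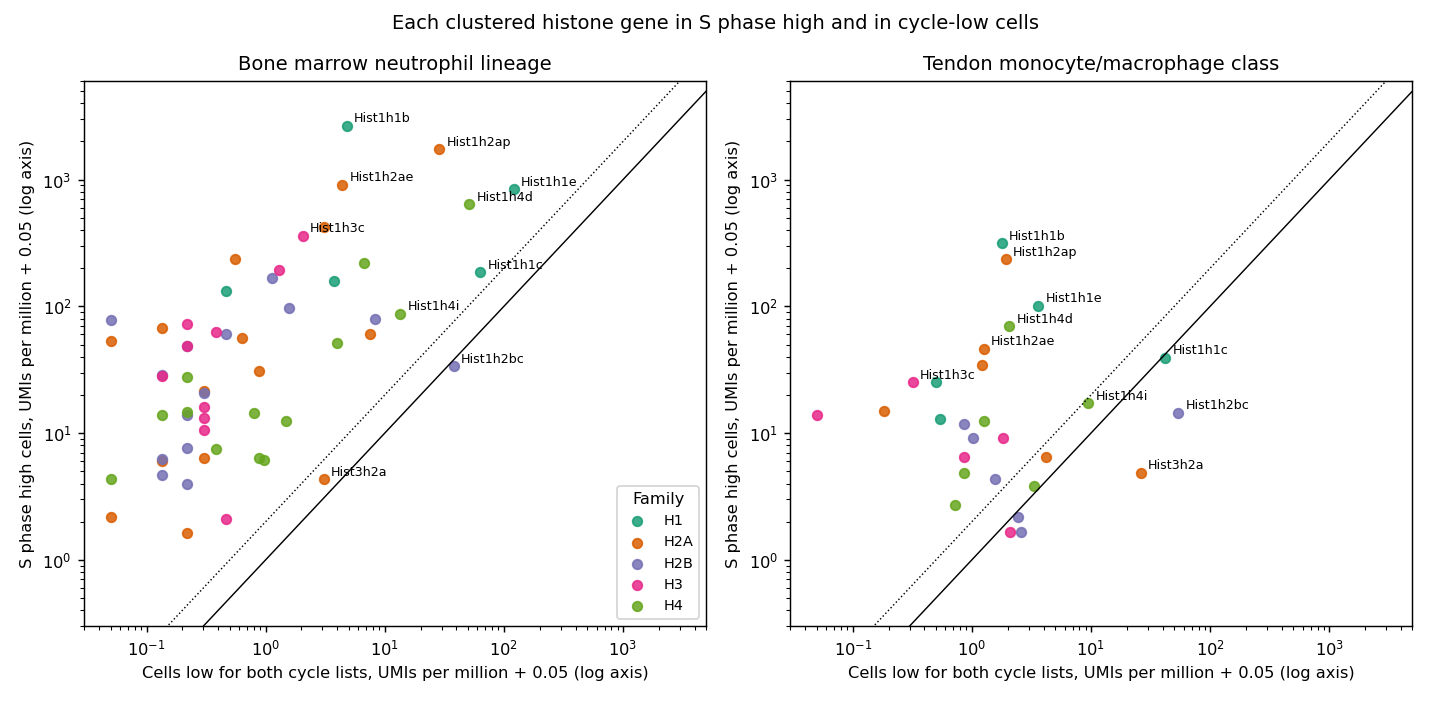
Each member with at least 20 UMIs over both groups, as CPM in cycle-low cells (horizontal) and in S phase high cells (vertical), log axes with 0.05 added, coloured by family. The solid line marks equal levels and the dotted line a 2-fold difference. In the marrow neutrophil lineage Hist1h2bc and Hist3h2a lie below the dotted line, and in the tendon monocytes/macrophages both lie below the solid line.

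Counted cell by cell at a fixed 2000 UMIs, the gates differed as well. The cycle-low marrow neutrophil lineage cells had a median of 1 clustered histone UMI, none of the 637 had 10 or more, and the highest had 9. Cells high for S phase genes only had a median of 8, cells high for G2/M genes only 17, and cells high for both lists 26. The shares with 10 or more were 47.5% of 80 cells, 58.5% of 236 and 70.3% of 195. Each cycling gate was mixed, since 27, 75 and 33 of their cells had at most 2 clustered histone UMIs. The order of the 4 medians was that of the summed levels.

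**Figure D3:**
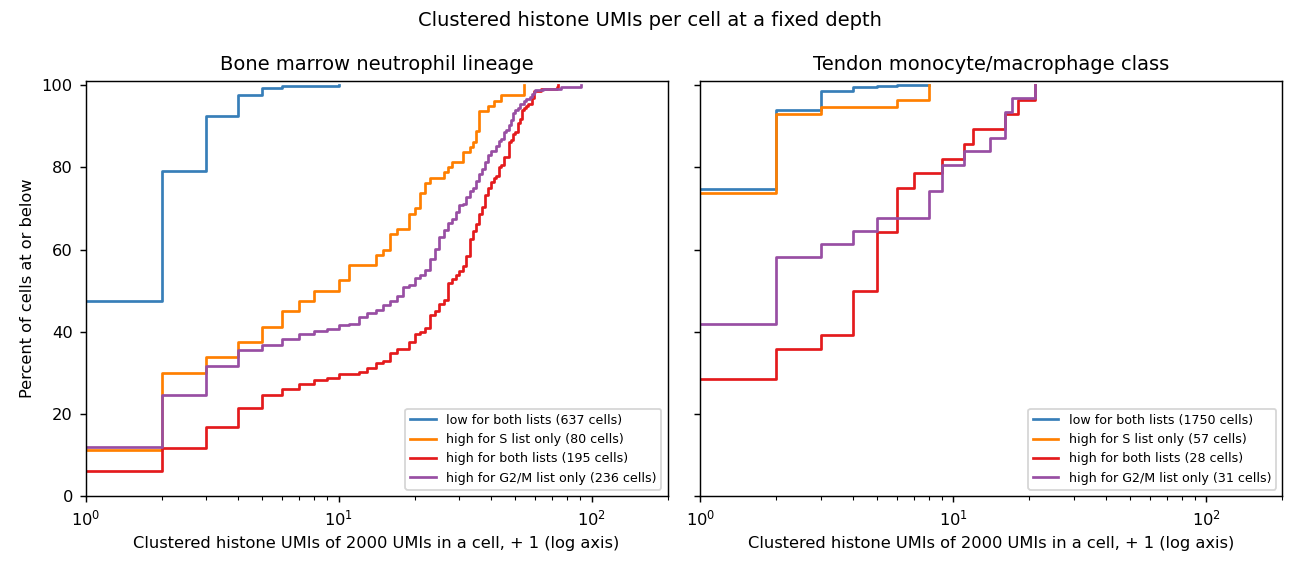
Percent of cells (vertical) with at most a given number of clustered histone UMIs among 2000 UMIs of the cell (horizontal, log axis, 1 added), by cycle gate. In marrow the curves of the cycling gates lie far to the right of the cycle-low curve, and in tendon the curve of cells high for the S list only lies close to the cycle-low curve.

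Within the cycling marrow neutrophil lineage, the level was 6398 CPM in the 80 cells high for S phase genes only, 11629 in the 195 high for both lists and 9524 in the 236 high for G2/M genes only. S phase high cells as a whole stood 0.10 above those high for G2/M genes only (0.08 to 0.11 on the log2 scale), with 2 of 61 members at least 2-fold higher against 16.4% of all genes. This difference turned with the definition. It was -0.57 when only cells that were not also high for G2/M genes were taken, -0.25 when the neutrophil marker genes were left out of the denominator and -0.14 at a threshold of 10 UMIs, so no direction is given for the summed level. Of the 55 members with at least 50 UMIs over these gates, 43 were highest in the cells high for both lists, 12 in those high for G2/M genes only and none in those high for S phase genes only. The same counts were not made over all genes, so this order is not given as particular to the members.

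A small group of members leaned towards S phase. The H1 gene Hist1h1a was at 95.3 CPM in cells high for S phase genes only, 146 in cells high for both lists and 44.3 in cells high for G2/M genes only, a log2 difference of 1.11 between the first and the last (0.90 to 1.31). Hist1h3a, an H3 gene, was at 23.9, 29.6 and 11.3 (1.08). Hist4h4, Hist1h4i and Hist1h4a, which encode H4, were the remaining members whose interval lay above 0, and 32 of the 55 members had an interval below 0. The shares of all genes with such intervals were not counted, so these counts are not given as particular to the members. The change of denominator that turned the summed difference was not applied to single members. Hist1h1c and Hist1h3c ran the other way. Hist1h1c was at 89.4, 222 and 262 CPM (-1.55) and Hist1h3c at 158, 437 and 452 (-1.52). The phase gates also differed in maturity, since 54 of the 80 cells high for S phase genes only were in the azurophil gate and 186 of the 236 high for G2/M genes only in the specific granule gate. Within the azurophil gate Hist1h1a was at 102 and 62.6 CPM in cells high for S phase genes only and for G2/M genes only, and within the specific granule gate at 77.4 and 35.7. Hist1h1c was at 65.9 and 86.8 in the azurophil gate and at 157 and 317 in the specific granule gate, so the order of each of these linker histone genes was the same within both. Hist1h4i was at 80.8 and 83.4 in the azurophil gate and at 67.5 and 43.0 in the specific granule gate, so its order was not.

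The same contrast was made in other cell classes. Among tendon monocyte/macrophage-like cells, the 85 cells high for S phase genes had 1092 CPM of clustered histone genes (1045 to 1141) and the 1750 cycle-low cells 172 (167 to 178), a log2 difference of 2.66 (2.59 to 2.74). Of 28 members compared, 19 were at least 2-fold higher, against 15.3% of all genes, and 2 were at least 2-fold lower, Hist3h2a and Hist1h2bc, against 7.67% of all genes. The 41 other members had under 20 UMIs. The S phase high cells were uneven. The 28 cells that were also high for G2/M genes were at 2267 CPM and the 31 cells high for G2/M genes only at 2579, while the 57 cells high for S phase genes only were at 260, a log2 difference of 0.60 from the cycle-low cells, and none of these 57 had 10 UMIs at the fixed depth.

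In these tendon cells Hist1h1b rose from 1.74 to 314 CPM (log2 difference 7.50), Hist1h2ap from 1.87 to 235 (6.97), Hist1h3c from 0.268 to 25.1 (6.55), Hist1h1a from 0.446 to 25.1 (5.82) and Hist1h2ae from 1.21 to 46.0 (5.25). The smallest values were those of members that had also been lowest in marrow, together with less counted genes. Hist3h2a was at 26.2 CPM in the cycle-low and 4.81 in the S phase high cells (-2.44), and Hist1h2bc at 54.1 and 14.4 (-1.90, interval -2.51 to -1.36). Hist3h2ba (-0.67), Hist2h2be (-0.17) and Hist1h1c (-0.10) had intervals that include no difference.

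In marrow monocyte/macrophage-like cells the 30 S phase high cells were at 14549 CPM and the 102 cycle-low cells at 682 (log2 difference 4.41), and 38 of 41 members were at least 2-fold higher, against 12.2% of all genes. Hist3h2a was again lower, at 9.97 against 30.3 (-1.61), whereas Hist1h2bc was higher, at 92.7 against 47.1 (0.98, interval 0.54 to 1.41). In tendon mesenchymal cells the 129 S phase high cells were at 1243 and the 301 cycle-low cells at 183 (2.76), 29 of 34 members were at least 2-fold higher, against 10.1% of all genes, and Hist1h2bc was lower, at 31.1 against 88.5 (-1.51). Tendon keratinocytes were at 2337 against 399 and endothelial cells at 926 against 205. Each class was higher in its S phase high cells, and the level of those cells was lower in each of the 4 tendon classes than in the marrow classes. The difference between the tissues was not tested.

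A few members led each group, and which ones differed between cycling and cycle-low cells. The 5 leading members held 66.8% of the clustered histone UMIs in the S phase high marrow lineage, where Hist1h1b led, 73.0% in tendon monocytes/macrophages high for both lists and 60.3% in cycle-low blood B cells. In cycle-low marrow neutrophil lineage cells Hist1h1e, Hist1h1c, Hist1h4d, Hist1h2bc and Hist1h2ap held 79.8% of the clustered histone UMIs, led by Hist1h1e with 31.9%. In cycle-low blood neutrophils Hist1h2bc led with 34.3%, and in cycle-low tendon neutrophils it held 45.6%, followed by Hist1h1c with 21.3% and Hist1h4i with 13.6%. The family make-up followed. H2B held 6.42% of the clustered histone UMIs in the S phase high marrow lineage, 21.2% in cycle-low mature marrow neutrophils, 37.9% in cycle-low blood neutrophils and 53.4% in cycle-low tendon neutrophils. H3 fell from 7.95% in the S phase high cells to 0.753%, 0.756% and 1.07% in the same 3 groups.

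**Figure D4:**
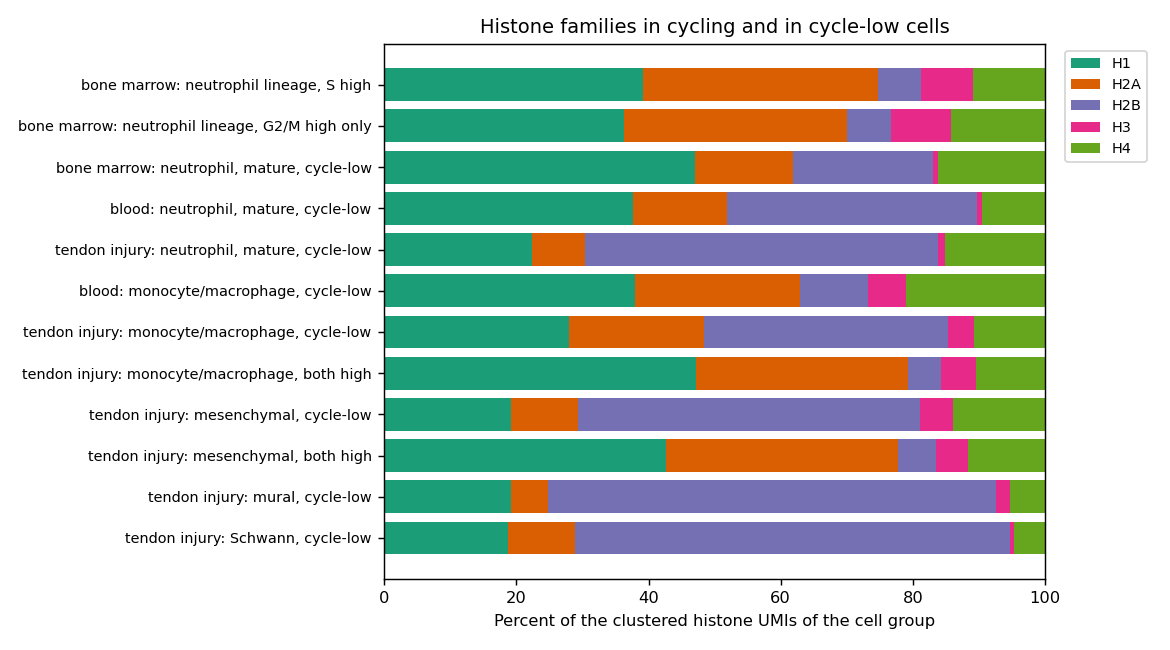
Share of each histone family in the clustered histone UMIs of a cell group (horizontal, percent). Among the groups drawn, H2B is the largest family in each cycle-low tendon group, up to 67.8% in mural cells, and is under 10% in each cycling group.

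The neutrophils of the 3 sites were compared next. Blood neutrophils had 699 CPM of clustered histone genes (671 to 727) and the mature marrow gate 866, a log2 difference of -0.31 (-0.38 to -0.24), with 13 of 22 members at least 2-fold lower against 7.57% of all genes. The 3 cells of the marrow gate that were high for a cycle list held 49.6% of its clustered histone UMIs. A member could reach the minimum of 20 UMIs through the marrow gate alone, so no conclusion is drawn from the number of lower members. Among cycle-low cells blood stood higher, at 697 against 442 (0.66, interval 0.57 to 0.75). Among 11 members, 3 were then at least 2-fold higher, against 8.98% of all genes: Hist1h2bc at 239 against 77.0 CPM (1.63), Hist3h2a at 10.9 against 4.28 (1.35) and the H2A gene Hist2h2aa1 at 22.7 against 9.75 (1.22). None of the 11 was at least 2-fold lower, against 5.15% of all genes. Hist1h4d was at 19.8 against 38.5 (-0.96).

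Tendon neutrophils were lower, at 328 CPM (305 to 353) against 699 in blood, a log2 difference of -1.09 (-1.21 to -0.97), and 4 of 9 members were at least 2-fold lower against 14.3% of all genes. These 4 members reached the minimum of 20 UMIs only through their blood UMIs, so no conclusion is drawn from their number. Among the 9 members compared, the differences were uneven. Hist1h1e was at 0.876 CPM in tendon and 136 in blood (-7.28, interval -10.3 to -5.42), from 2 and 474 UMIs. Hist1h2ap was at 0.438 and 57.3 (-7.03) and Hist1h4d at 0.438 and 20.6 (-5.56), each from 1 UMI in tendon. Hist3h2a was at 2.19 and 11.7 (-2.42). Against these, Hist1h4i was at 44.2 and 35.5 (0.32), Hist1h2be at 23.6 and 23.2 (0.03) and Hist2h2aa1 at 20.1 and 23.8 (-0.24), all with intervals that include no difference, and Hist1h2bc at 151 and 239 (-0.66) and Hist1h1c at 70.5 and 122 (-0.79) fell moderately. Tendon neutrophils had a median of 3497 UMIs per cell and blood neutrophils 8382. The mature neutrophil markers summed to 183795 CPM in tendon and 340977 in blood, and the part of depth and of these markers in the difference was not tested. A further 10 tendon cells of the neutrophil lineage fell outside the mature gate and held 1371 of the lineage's 2121 clustered histone UMIs, and 8 such blood cells held 1087 of 3526. With these cells included, the lineage was at 826 CPM (791 to 861) in tendon and 936 (905 to 967) in blood, a much smaller difference than between the mature gates.

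Cycle-low monocyte/macrophage-like cells were compared across the same sites. Marrow cells were at 682 CPM and blood cells at 621 (log2 difference -0.14, interval -0.23 to -0.04). Hist1h1e was at 131 in marrow and 129 in blood. Tendon cells were at 172, a log2 difference of -1.85 from blood (-1.92 to -1.78). Of 29 members compared, 21 were at least 2-fold lower, against 12.7% of all genes. The minimum number of UMIs could be reached through the blood cells alone, so no conclusion is drawn from the number of lower members. Hist1h1d was at 0.491 in tendon and 26.6 in blood (-5.76), Hist1h4d at 2.01 and 78.8 (-5.29), Hist1h1e at 3.57 and 129 (-5.17) and Hist1h2ap at 1.87 and 63.1 (-5.07). Hist1h1c was at 41.8 and 56.9 (-0.44), Hist3h2a at 26.2 and 21.7 (0.27) and Hist1h2bc at 54.1 and 35.1 (0.62). Hist1h1e, Hist1h2ap and Hist1h4d were thus far below blood in both tendon classes, while Hist1h2bc and Hist1h1c stayed within 2-fold of their blood level in both.

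Further classes were then taken in. Among the 16 cycle-low groups of at least 30 cells, 8 in marrow and blood and 8 in tendon, Hist1h1e ranged from 113 to 383 CPM in marrow and blood and from 1.05 to 22.1 in tendon. Hist1h2ap ranged from 11.2 to 81.9 and from 0 to 7.47, and Hist1h4d from 19.8 to 160 and from 0.524 to 12.3. For these 3 members the ranges did not overlap. They are also the 3 members lowest in tendon against blood neutrophils among those with at least 50 UMIs, so they were not picked independently of these groups. How often ranges do not overlap over all genes was not counted, and members not named in this paragraph were not looked at. No conclusion is therefore drawn from the lack of overlap. Hist1h1c ranged from 54.3 to 126 and from 24.4 to 73.5, Hist1h2bc from 7.54 to 239 and from 33.1 to 278, and Hist3h2a from 2.33 to 30.3 and from 2.09 to 44.9, and these ranges overlapped. The ranges of Hist1h4i, Hist1h2be, Hist2h2aa1 and Hist1h1b, the other members looked at in this way, overlapped as well. The tendon groups come from 1 library and 1 preparation, which cannot be told apart from the site. Only mature neutrophils and monocytes/macrophages were among the groups of tendon and also among those of marrow and blood. The remaining groups were of different cell classes, so class and site cannot be told apart for them either.

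**Figure D5:**
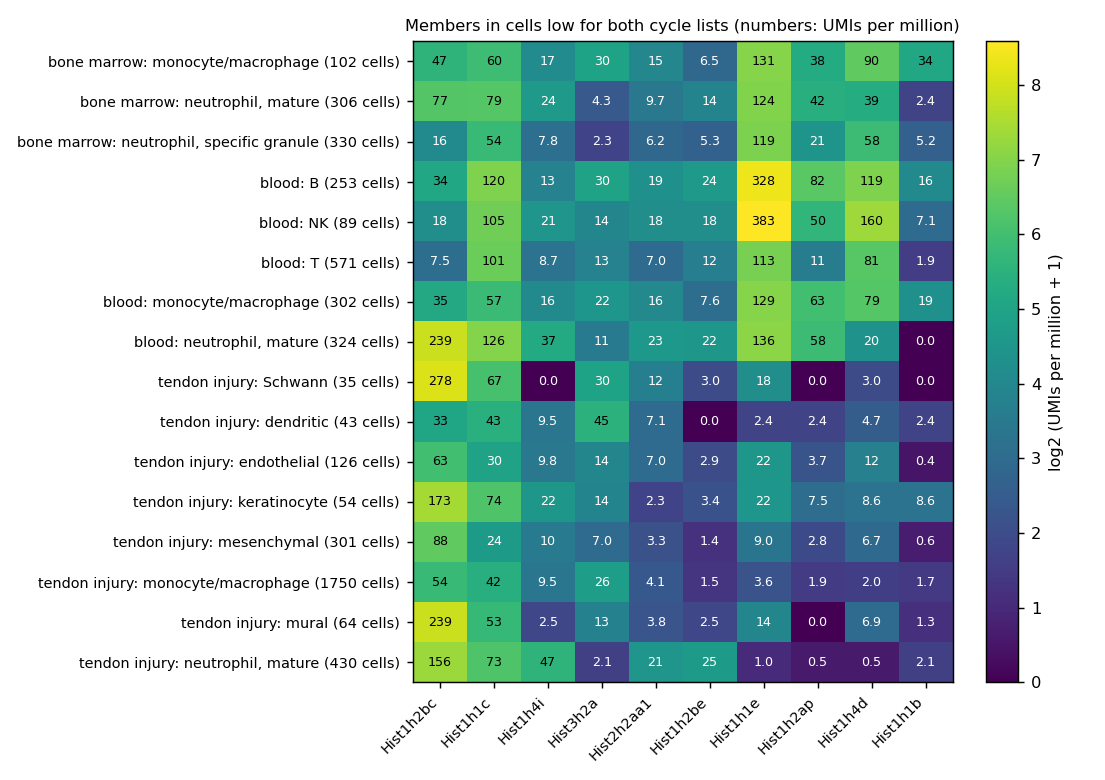
CPM of 10 members in each cycle-low group of at least 30 cells. Colour is log2 of the level plus 1. Hist1h1e, Hist1h2ap and Hist1h4d, already named as lowest in tendon against blood neutrophils, reach at most 22.1, 7.47 and 12.3 in tendon groups. Hist1h2bc is highest in tendon Schwann cells (278) and lowest in blood T cells (7.54).

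Hist1h2bc varied widely between cell types of 1 library. It was at 239 CPM in cycle-low blood neutrophils, 35.1 in blood monocytes/macrophages, 34.1 in blood B cells and 7.54 in blood T cells. In tendon it was at 278 in Schwann cells, 239 in mural cells, 173 in keratinocytes, 156 in neutrophils, 63.0 in endothelial cells and 54.1 in monocytes/macrophages. The tendon library gave 6344 of the 9667 Hist1h2bc UMIs, but it was also the largest library, with 90621052 UMIs against 49580625 in marrow and 22542581 in blood.

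Among blood lymphocytes, B cells had 1630 CPM of clustered histone genes, NK cells 1102 and T cells 843. B cells stood 0.95 above T cells on the log2 scale (lower bound 0.89). Of 38 members, 17 were at least 2-fold higher, against 14.8% of all genes, and none was 2-fold lower, against 9.65% of all genes. Hist1h1e was at 351 in B and 146 in T cells, Hist1h2bc at 40.8 and 8.11 (2.33), Hist1h3e at 65.7 and 16.1 (2.03), and Hist1h1b at 62.9 and 52.9 (0.25, interval -0.04 to 0.54). Among cycle-low cells the levels were 1155 in B, 1118 in NK and 506 in T cells, and the intervals of B and NK cells overlapped. Marrow B cells reached 20873 CPM, but 74.9% of these UMIs came from 5 of the 45 cells, and the 25 cycle-low ones were at 2209. B cells had a median depth of 5059 UMIs and T cells 8879.

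The transcript ends, taken from the annotated transcript with the longest 3′ UTR, were set beside the size of the rise in the marrow neutrophil lineage. Members with a stem-loop and fewer than 300 annotated bases after it rose by a median of 6.26 on the log2 scale (22 of 26 compared), and members with 300 or more bases after it by 3.67 (16 of 17). Members whose annotated 3′ UTR is shorter than 50 bases rose by 7.17 (13 of 17), and the 3 compared members without a stem-loop in a longer 3′ UTR, Hist1h2bc among them, by 4.54. Hist1h2bp, also among these 3, has a stem-loop in another annotated transcript. In tendon monocytes/macrophages the same 4 groups had medians of 4.12 (12 members), 1.5 (11), 5.82 (3) and -1.04 (2). In both classes, of the members with a stem-loop, those with more annotated bases after it had the smaller median. The ranges within a group were wide, from 0.51 to 7.55 for members with 300 or more bases after the stem-loop in marrow.

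The partners of histone synthesis were counted from fixed lists in the same marrow contrast. The lists that define the gates are given only as a check, with 32 of 32 S phase genes (Dut, Rrm2 and Tyms among them) and 39 of 40 G2/M genes (Top2a, Mki67 and Cks2) at least 2-fold higher. The share of all genes that were at least 2-fold higher in this contrast was 52.7%. Of the histone transcription and processing genes 8 of 10 compared were higher: Slbp, which binds the stem-loop, by 3.18, Casp8ap2, a partner of NPAT, by 2.23 and Cpsf2, a subunit of the cleavage complex, by 1.27. All 10 histone chaperone genes were higher, with Nasp at 5.27, Nap1l1 at 3.71 and Rbbp4 at 2.94. Of the replication-independent variants, 7 of 9 were higher, including H2afz (2.31) and H3f3b (1.35), whereas H3f3a was at 1623 against 2061 CPM (-0.34). In tendon monocytes/macrophages 6 of 10 processing genes, 10 of 10 chaperones and 3 of 9 variants were at least 2-fold higher, against 15.3% of all genes.

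Across 42 groups of at least 30 cells, the non-histone genes whose log2 (CPM + 10) was most like the summed level were Fbxo5 (Pearson r of 0.91), Sgol1 (0.85), Kif18a, E2f8 and Neil3 (0.84 each), Asf1b and Cep128 (0.83 each), and Esco2, Casc5 and Ccnf (0.82 each), out of 7138 genes compared. The groups hold different cells but share 3 libraries, so these values describe likeness only. Against the sum of the other members, r ranged from 0.67 for Hist1h1c to 0.94 for the Hist2h2bb feature ENSMUSG00000105827 in 36 of the 39 members that reached 20 CPM in some group. It was 0.03 for Hist3h2ba, -0.23 for Hist3h2a and -0.30 for Hist1h2bc.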

How the data were processed

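Single cells of 3 libraries (bone marrow, blood, tendon injury; 1 per tissue) were analysed from the matrices of UMI counts that the authors deposited, made with 10x 3′ v3 chemistry and Cell Ranger 5.0.1 per the file headers, on mm10 per the submitters' processing notes. Which annotation was counted is not stated. Library totals were 49580625, 22542581 and 90621052 UMIs. Cells with at least 200 genes and at most 20% mitochondrial UMIs were kept, and the cells with the highest Scrublet scores, 0.8% per 1000 cells, were left out as doublets, since the automatic caller marked 11, 31 and 0. A class needed a marker score of 0.25 and a margin of 0.05, and the cycle gates used cells thinned to 2000 UMIs (20, 37 and 257 shallower cells were left out). Members needed 20 UMIs over both groups of a comparison, and a zero count was set to 3 UMIs in bounds. A gene could reach this minimum through 1 group alone, so counts of higher or lower members favour those high in 1 group. The shares over all genes followed the same rule. Levels are summed UMIs per 1000000 (CPM), not divided by length, so levels of different genes compare UMIs counted. With 1 library per tissue no test was run. Intervals are exact Poisson or binomial at 95% and cover counting error only. Named members were the 4 most counted of each family, those with the 5 largest and 5 smallest S phase differences in the marrow lineage and in tendon monocytes/macrophages and the 3 largest and 3 smallest between tendon and blood neutrophils (50 UMIs or more), the 3 most counted genes of each list and the 10 most alike genes. Other members were named after their values were seen. The members, lists and comparisons were chosen with earlier results of these data known, and the class scoring and the comparisons of cycle-low cells were set after seeing the data. Python 3.11.15, numpy 2.4.6, scipy 1.17.1, pandas 2.3.3, scanpy 1.11.5 and matplotlib 3.10.9 were used, and the scripts were tested on simulated data.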

Additional observations from a re-analysis of the deposited data

Results flagged for a closer look

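Hist1h2bc, an H2B gene, moved in opposite directions with the S phase gate in the monocytes/macrophages of different tissues. On the log2 scale it was -1.90 in tendon (14.4 against 54.1 CPM) and 0.98 in marrow (92.7 against 47.1). The remaining opposite directions were between cell classes that were compared across the same tissues, all in cycle-low cells. Between blood and marrow, Hist1h2bc was at -0.43 (interval -0.80 to -0.05) in monocytes/macrophages and at 1.63 (1.44 to 1.83) in neutrophils. Hist3h2a was at -0.49 (-0.95 to -0.0031) and 1.35 (0.47 to 2.26), the latter from 33 UMIs in blood and 18 in marrow. Both monocyte/macrophage intervals come close to no difference. The summed level was at -0.14 in monocytes/macrophages and 0.66 in neutrophils. Between tendon and blood, Hist1h2bc was at 0.62 in monocytes/macrophages and at -0.61 in neutrophils. None of these differences was tested, because each tissue has 1 library.

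The cells left out by the filters also held clustered histone UMIs. Their level was 8822 CPM in 42 marrow cells, 619 in 95 blood cells and 555 in 849 tendon cells, where the libraries as a whole were at 6277, 936 and 557.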

How the results depend on the processing

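No paired analysis was possible because each tissue has 1 library, and for the same reason no replicate could be left out. Of 74 alternatives, 40 stayed within the counting interval or within 1.5 times the count, 28 moved further and 6 changed direction. Azurophil against mature cells, blood against marrow neutrophils and tendon against blood neutrophils use no cycle gate in the main setting. Changed cycle gates (1000 UMIs, or a gate of 10 UMIs) could therefore not move these comparisons, although they are counted among the 40. All values are log2 differences unless called counts. S phase high against G2/M high cells of the marrow lineage (0.10) changed direction at a gate of 10 UMIs (-0.14), without neutrophil marker genes in the denominator (-0.25) and with cells that were not also high for G2/M genes (-0.57). It was 0.11 without doublet removal, 0.0805 in cells thinned to 1000 UMIs, 0.14 as a mean over cells, 0.0485 with a margin of 0.15 between classes and 0.0011 without the most counted member. Blood against mature marrow neutrophils (-0.31) changed direction as a mean over cells (0.35), with the wider margin (0.54) and in cycle-low cells (0.66), and was -0.45, -0.14 and -0.54 without doublet removal, without the most counted member and with the changed denominator. The marrow S phase difference (4.75) was 4.54 at 1000 UMIs, 4.66 as a mean over cells, 4.68 with the wider margin, 4.33 without the most counted member, 4.02 with the changed denominator and 4.08 with cells not also high for G2/M genes. In the same order of kinds, azurophil against mature cells (3.16) came to 3.04 without doublet removal, 3.61 as a mean, 3.92 with the wider margin, 2.87 without the most counted member, 2.43 with the changed denominator and 4.13 against cycle-low cells. The tendon monocyte/macrophage difference (2.66) was 2.99 at 1000 UMIs, 3.18 at a gate of 10, 2.34 as a mean, 2.19 without the most counted member and 0.60 with cells not also high for G2/M genes. Tendon against blood neutrophils moved to -1.41 with the changed denominator. The count of 19 tendon members became 36 with a minimum of 5 UMIs and 12 with cells not also high for G2/M genes, and the marrow count of 55 ranged from 45 to 60. The alternatives on cells not also high for G2/M genes and on cycle-low neutrophils were added after seeing the data. The causes of these changes were not tested. The cells left out of the cycle-low neutrophils include the 3 cells with 49.6% of the clustered histone UMIs of the mature marrow gate. In the tendon against blood neutrophils 60 of 69 members had too few UMIs to compare, and in the cycle-low blood against marrow neutrophils 58, and the part of depth in this was not tested.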
